A study of Mus musculus with 8 samples.

Results

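Mitochondrial ribosomal protein genes encode the protein part of the mitoribosome, the ribosome that translates the few messenger RNAs of the mitochondrial genome. The proteins are encoded in the nucleus, made in the cytoplasm and imported, whereas the ribosomal RNAs come from mitochondrial DNA. The particle is thus built from the products of both genomes. Many members descend from bacterial ribosomal proteins and others were gained by mitochondria. The messenger RNAs it reads code for subunits of the respiratory chain and of ATP synthase. Members were taken by gene name: Mrpl (large subunit) or Mrps (small subunit) followed by a number and, where present, the letter a, b or c. There were 77 such genes, 48 named Mrpl and 29 named Mrps, among 24243 gene names in the female table and 23906 in the male table. Each had 1 row in each table and passed the low-value filter of a mean of at least 1 FPKM (fragments scaled to transcript length and to the mapped fragments of the library) over 4 libraries. By the subunit in which the protein is known to sit, the members comprised 30 large subunit proteins of bacterial type, 20 large subunit proteins specific to mitochondria, 16 small subunit proteins of bacterial type and 10 specific to mitochondria. Mrps36 was not placed, since its protein is known as a component of the α-ketoglutarate dehydrogenase complex.

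RNA-Seq was performed on germ cells of mouse embryos at E15.5, sorted for the Oct4-EGFP transgene from ovaries and testes, with 2 libraries for each sex and genotype (control or Snf5 CKO). Snf5 CKO embryos carried a floxed and a deleted Snf5 allele (Snf5 fx/Δ) with TNAP-Cre, a Cre knocked into the Alpl gene that is active in primordial germ cells. Snf5 is another name of Smarcb1, a subunit of SWI/SNF, the complex that remodels chromatin with ATP. Control cells were a mixture from Snf5 fx/+ embryos, Snf5 fx/Δ embryos, and Snf5 fx/+ embryos with TNAP-Cre, so that part of the control cells also had a single functional allele or Cre. Recombination by TNAP-Cre is incomplete, and the strain is C57BL/6 in the labels but a mixed background in the methods. Most libraries pooled several embryos, whereas each male Snf5 CKO sort listed in the paper used a single embryo. Cells were lysed in bulk, so a lower share of a cell type and less RNA per cell cannot be told apart. Smarcb1 was at 23.4 and 22.3 FPKM in female control and at 4.24 and 2.47 FPKM in female Snf5 CKO. In males it was at 141 and 167 FPKM in control and at 8.73 and 10.1 FPKM in Snf5 CKO, so that the targeted gene followed the labels in all 8 libraries.

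The promoters of the members were examined for 3 sequence motifs known in genes of mitochondrial function. RefSeq promoter windows (GRCm38.p6, 250 bases before to 50 after a transcript start) were matched by symbol for 68 of the 77 members. On either strand, CCGGAAG (the ETS type bound by GABP) was in a window of 25 members (36.8%) and of 9.93% of all symbols, GCGCATGC (the NRF1 type) in 8 members (11.8%) and 3.05% of all symbols, and AAGATGGCG (the YY1 type) in 8 members (11.8%) and 1.64% of all symbols. In all, 35 members held at least 1 of the motifs, and the windows of different symbols can overlap where genes start head to head. A match is a description of the letters and not a bound site.

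The stretches around AAGATGGCG are shown for its 8 holders, since the values of these members are compared with those of the others below. The strand is that of the gene, read 5′ to 3′, and capitals mark the motif or, in Mrpl36 and Mrps11, its reverse complement CGCCATCTT.
Mrpl35 (chr6:71823743-71823771, minus strand): ggcaggctgcAAGATGGCGgcttccatct
Mrpl36 (chr13:73330968-73330996, plus strand): cgtgaccttaCGCCATCTTtcttcctggc
Mrpl37 (chr4:107066822-107066850, minus strand): tgcacgggcaAAGATGGCGgcgtccaggt
Mrpl42 (chr10:95501904-95501932, minus strand): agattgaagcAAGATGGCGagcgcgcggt
Mrps11 (chr7:78783013-78783041, plus strand): ctacgggcgcCGCCATCTTtctgtcttcc
Mrps18a (chr17:46111005-46111033, plus strand): ggtgcgttccAAGATGGCGgccctcaggg
Mrps24 (chr11:5707652-5707675, minus strand): gcgccggcccAAGATGGCGtggtc
Mrps27 (chr13:99344790-99344818, plus strand): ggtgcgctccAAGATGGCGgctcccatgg
In 6 of these the motif began 12 to 37 bases after the transcript start, and in Mrpl36 and Mrps11 it began 31 and 108 bases before it.

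The 3 genes of the S18 family are shown next, because one of them, Mrps18b, was taken from its name to be the internal control that the study plots as Rps18b; no row of the tables is named Rps18b. Capitals mark the ETS type motif CCGGAAG or its reverse complement CTTCCGG, and in the last line the reverse complement GCATGCGC of the NRF1 type motif.
Mrps18a (chr17:46110968-46110994, plus strand): cacccctgctCCGGAAGcggaagtgca
Mrps18c (chr5:100798593-100798619, plus strand): ggtcacgtgaCTTCCGGcccgggaagc
Mrps18b (chr17:35916391-35916407, minus strand): cgcagtcgctCTTCCGG
Mrps18b (chr17:35916646-35916673, minus strand): acggcccgacGCATGCGCactgggagca
All 3 paralogs thus held the ETS type motif, at 26 bases before the start in Mrps18a, at 156 before it in Mrps18c and at 44 after it in Mrps18b.

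The members were abundant transcripts of these cells. In control, the level of the median member was 71.5 and 81.3 FPKM in females and 77.4 and 107 FPKM in males, and ranked by control mean the median member stood at percentile 86.3 of the genes tested in females and 90.3 in males. In each sex 75 of 77 members lay above the median tested gene. By control mean, the most abundant in females were Mrpl20 (630 ± 82.1 FPKM, SD, n = 2), which in bacteria joins the large subunit early, Mrpl33 (531 ± 163 FPKM) and Mrpl42 (527 ± 79.4 FPKM). In males they were Mrpl23 (1104 ± 409 FPKM), whose protein lines the exit of the peptide tunnel, Mrpl42 (563 ± 126 FPKM) and Mrpl52 (433 ± 207 FPKM). The intervals of these neighbours overlapped in females, and in males Mrpl42 and Mrpl52 differed by less than their spread. The lowest were Mrpl19 (9.92 ± 0.0256 FPKM) and Mrps2 (13.3 ± 2.67 FPKM) in females, and Mrps25 (8.16 ± 1.19 FPKM) and Mrpl19 (8.82 ± 0.22 FPKM) in males. FPKM is per length, and levels are not compared between the tables, which the authors normalized separately.

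In the fit on genotype alone, most members did not pass the test for a difference between control and Snf5 CKO. Those that did pass were split between the directions. With replicate number as a block, given in the next paragraph, most members passed in both sexes, again split between the directions. In females 14 of 77 members were lower and 12 higher in Snf5 CKO (limma, Benjamini-Hochberg adjusted p under 0.05 over 11520 genes), that is 18.2% and 15.6% of the members. Of all genes tested, 34.7% and 27.0% were lower and higher. In males 15 were lower and 10 higher, 19.5% and 13.0% of the members, where 25.3% and 21.0% of the 12269 genes tested were. At least 2-fold, 6 female members fell and 9 rose (backgrounds 21.6% and 17.3%), and 7 male members fell and 5 rose (backgrounds 17.5% and 14.4%). The median log2 fold change of the members was −0.03 in females, with quartiles of −0.34 and 0.38, beside a median of −0.13 and quartiles of −0.88 and 0.68 over all genes tested. In males it was −0.08, with quartiles of −0.64 and 0.50, beside −0.07 and quartiles of −0.76 and 0.61. In both sexes the shares of members called were thus below those of all genes, and the middle of their fold changes was narrower than that of all genes.

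The share called turned on how the replicate number entered the fit. With replicate number as a block, 27 female members were lower and 26 higher, 35.1% and 33.8%, beside 42.6% and 34.1% of all genes. In males 35 were lower and 31 higher, 45.5% and 40.3%, beside 41.2% and 35.1% of all genes, so that the male members were then above the background in both directions. Several of the most and least abundant members passed the test in males with the block alone. These were Mrpl23 (adjusted p = 0.13 without and 7.36e-05 with the block), Mrpl20 (0.185 and 0.000258) and Mrpl52 (0.822 and 0.0392). Mrpl33 (0.655 and 0.0206) and Mrpl19 (0.1 and 0.0102) did so too. Without a model, the 2 Snf5 CKO libraries both lay below the 2 controls for 27 members and above them for 22 in females (all genes 45.1% and 36.4%), and for 24 and 21 in males (all genes 40.0% and 34.6%). Rescaling moved the split between directions: with median-of-ratios factors 11 female members were lower and 18 higher (62.1% of the calls higher, 46.2% as deposited), as the median of all female genes shifted by 0.14. With a common sum 18 male members were lower and 5 higher (21.7% of the calls higher, 40.0% as deposited), as the median of all male genes shifted by −0.19. With 2 libraries against 2, an exact permutation test cannot go below p = 0.333, and all adjusted p-values here come from limma. The fit with the block spends a further degree of freedom on the replicate number. Its p-values thus rest largely on the spread that limma borrows from other genes, and their small size is not stronger evidence by itself.

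**Figure D1:**
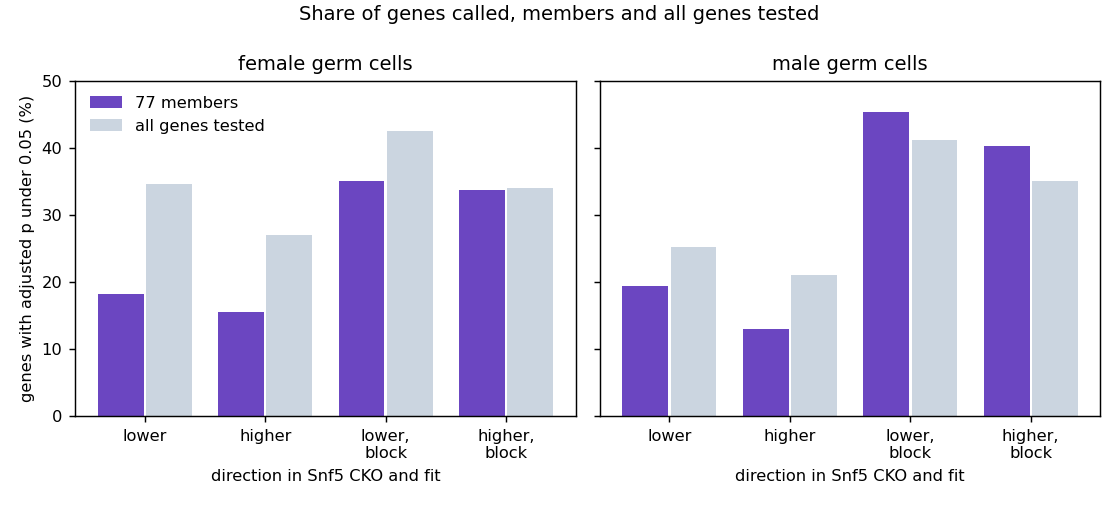
Percent of genes with adjusted p under 0.05 in each direction, for the 77 members (purple) and all genes tested (grey), in the fit without and with replicate number as a block ("block"). Without the block the members sit below all genes in both sexes and directions (18.2% against 34.7% for lower genes in females), and with it the male members sit above them.

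The members differed between replicates in a shared way. In female control 55 of 77 members, and in female Snf5 CKO 70 of 77, were higher in replicate 2 than in replicate 1, beside 41.4% and 41.7% of all genes tested. In male control 75 and in male Snf5 CKO 76 of 77 members were higher in replicate 2, beside 46.9% and 48.8% of all genes. The median member difference, replicate 2 minus replicate 1, was 0.18 and 0.28 on the log2(FPKM + 1) scale in female control and Snf5 CKO, and 0.40 and 0.46 in the male groups. Across the 77 members, which share libraries and are not replicates, the difference in control and the difference in Snf5 CKO had a correlation of 0.807 in females and 0.885 in males, beside 0.500 and 0.607 across all genes. Shorter transcripts were more often higher in replicate 2: the correlation of the difference with log2 transcript length ran from −0.52 to −0.30 over all genes and from −0.38 to −0.23 over members, whose median longest transcript was 1849 bases (3220 for the female genes tested and 3180.5 for the male ones). The part of transcript length in the replicate difference was not tested. Within each replicate, the median log2 ratio of Snf5 CKO to control was −0.03 and 0.04 in females and −0.10 and −0.01 in males, and 72 female and 71 male members had the same sign in both.

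**Figure D2:**
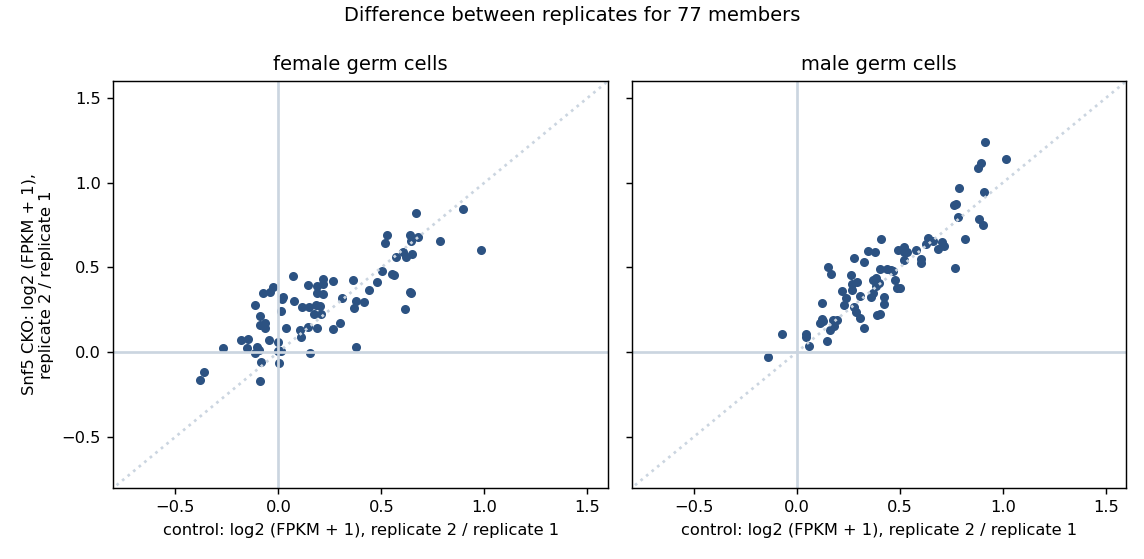
Each point is a member, at the log2(FPKM + 1) of replicate 2 minus replicate 1 in control (x axis) and in Snf5 CKO (y axis), with a dotted line of equality. Of 77 members, 75 in male control and 76 in male Snf5 CKO lie above 0, and the points run along the line.

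The class counts that follow stand beside the shares of all genes, 34.7% lower and 27.0% higher in females and 25.3% and 21.0% in males (with the block 42.6% and 34.1%, and 41.2% and 35.1%). Among large subunit proteins of bacterial type, 4 of 30 members fell and 8 rose in females (9 and 12 with the replicate block), with a median log2 fold change of 0.09. Without the block the female share higher, 26.7%, was at the background and the share lower, 13.3%, below it. With the block the female share higher, 40%, was above the 34.1% of all genes and the share lower, 30%, below the 42.6%. In males 4 fell and 3 rose (13 and 14 with the block), with a median of −0.04. Mrpl1, the protein of the L1 stalk through which spent transfer RNA leaves, fell in both sexes: it was at 83.6 and 73.6 FPKM in female control and at 28.8 and 30.3 FPKM in female Snf5 CKO, a log2 fold change of −1.38 ± 0.17 (SE, adjusted p = 0.000625). In males Mrpl1 was at 47.2 and 58.0 FPKM in control and at 21.5 and 29.0 FPKM in Snf5 CKO (−1.04 ± 0.22, adjusted p = 0.0175). The groups did not overlap in either sex, and the male call was lost without control replicate 2 (adjusted p = 0.0639) or Snf5 CKO replicate 1 (0.0678). Mrpl20, the most abundant member in female control, was at 572 and 688 FPKM there and at 221 and 296 FPKM in Snf5 CKO (−1.29 ± 0.26, adjusted p = 0.00459). Both male Snf5 CKO libraries also lay below the controls for Mrpl20, which did not pass the test (adjusted p = 0.185; 0.000258 with the block).

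The largest rise in females was that of Mrpl34, a small protein of the core of the large subunit. Mrpl34 was at 19.1 and 29.9 FPKM in female control and at 83.9 and 124 FPKM in Snf5 CKO, 4.14-fold higher on the scale of FPKM + 1 (log2 fold change 2.05 ± 0.28, adjusted p = 0.000952). In males it was at 68.2 and 104 FPKM in control and at 124 and 179 FPKM in Snf5 CKO (0.81 ± 0.30, adjusted p = 0.0806; 0.000129 with the block), also without overlap. Mrpl15 rose in females from 61.4 and 62.0 FPKM to 128 and 129 FPKM (1.05 ± 0.17, adjusted p = 0.00178). In males Mrpl15 rose from 44.3 and 50.3 FPKM to 88.3 and 101 FPKM (0.98 ± 0.18, adjusted p = 0.0108), so that its libraries stood close together within every group. The male call of Mrpl15 was lost with a common sum (0.80, adjusted p = 0.117) and without control replicate 1 (0.0719) or Snf5 CKO replicate 2 (0.0501). Mrpl36, a late-joining protein in bacteria, rose in females from 41.4 and 63.9 FPKM to 108 and 129 FPKM (1.18 ± 0.24, adjusted p = 0.00543). In males Mrpl36 was at 64.7 and 90.3 FPKM in control and at 98.5 and 132 FPKM in Snf5 CKO (adjusted p = 0.128; 0.000383 with the block). Mrpl12, which is also known to bind the mitochondrial RNA polymerase, rose in females from 59.1 and 65.4 FPKM to 120 and 133 FPKM (1.01 ± 0.17, adjusted p = 0.0026). The male groups of Mrpl12 overlapped (adjusted p = 0.482; 0.0207 with the block).

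Mrpl18, whose bacterial counterpart binds the small ribosomal RNA of the central protuberance, rose in males from 50.1 and 65.8 FPKM to 135 and 157 FPKM (1.33 ± 0.22, adjusted p = 0.00798). In females Mrpl18 was at 144 and 165 FPKM in control and at 144 and 159 FPKM in Snf5 CKO, and the groups overlapped. The row of Mrpl18 spans 7.66 times the RefSeq gene in the female table and 4.51 times in the male table, and the row of Mrpl15 spans 7.52 times the gene in the female table.

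Mrpl16 and Mrpl24 passed the test in both sexes with opposite signs. Mrpl16, a protein near the site of peptide bond formation, was at 29.9 and 27.5 FPKM in female control and at 42.2 and 42.0 FPKM in female Snf5 CKO (0.54 ± 0.16, adjusted p = 0.0244). That call was lost without any 1 of the 4 libraries (adjusted p from 0.0637 to 0.122) and with a common sum (0.0922). In males it fell from 87.6 and 119 FPKM to 37.4 and 53 FPKM (−1.18 ± 0.26, adjusted p = 0.0189), a call lost without control replicate 2 (0.0573) or Snf5 CKO replicate 1 (0.0615). Mrpl24, a protein at the tunnel exit, rose in females from 37.4 and 48.8 FPKM to 66.9 and 68.5 FPKM (0.65 ± 0.19, adjusted p = 0.0219), a call kept only when control replicate 2 was the library left out (0.0113; 0.061 to 0.157 for the others). In males Mrpl24 fell from 120 and 154 FPKM to 61.5 and 77.5 FPKM (−0.97 ± 0.22, adjusted p = 0.0217), and the call was lost without control replicate 2 (0.107) or Snf5 CKO replicate 1 (0.105). Its exons overlap those of Rrnad1 on the other strand, and its row spans 2.06 and 3.99 times the gene in the female and male tables. Mrpl23 had the same pattern of signs: it rose in females from 127 and 219 FPKM to 338 and 533 FPKM (1.34 ± 0.34, adjusted p = 0.0127), a call lost without control replicate 1 (0.95, adjusted p = 0.0598). In males Mrpl23 was at 816 and 1393 FPKM in control and at 394 and 724 FPKM in Snf5 CKO, which did not pass the test (−0.995 ± 0.45, adjusted p = 0.13; 7.36e-05 with the block). The annotation holds a pseudogene of Mrpl23, whose reads the counting could split. The difference between the sexes was not tested.

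**Figure D3:**
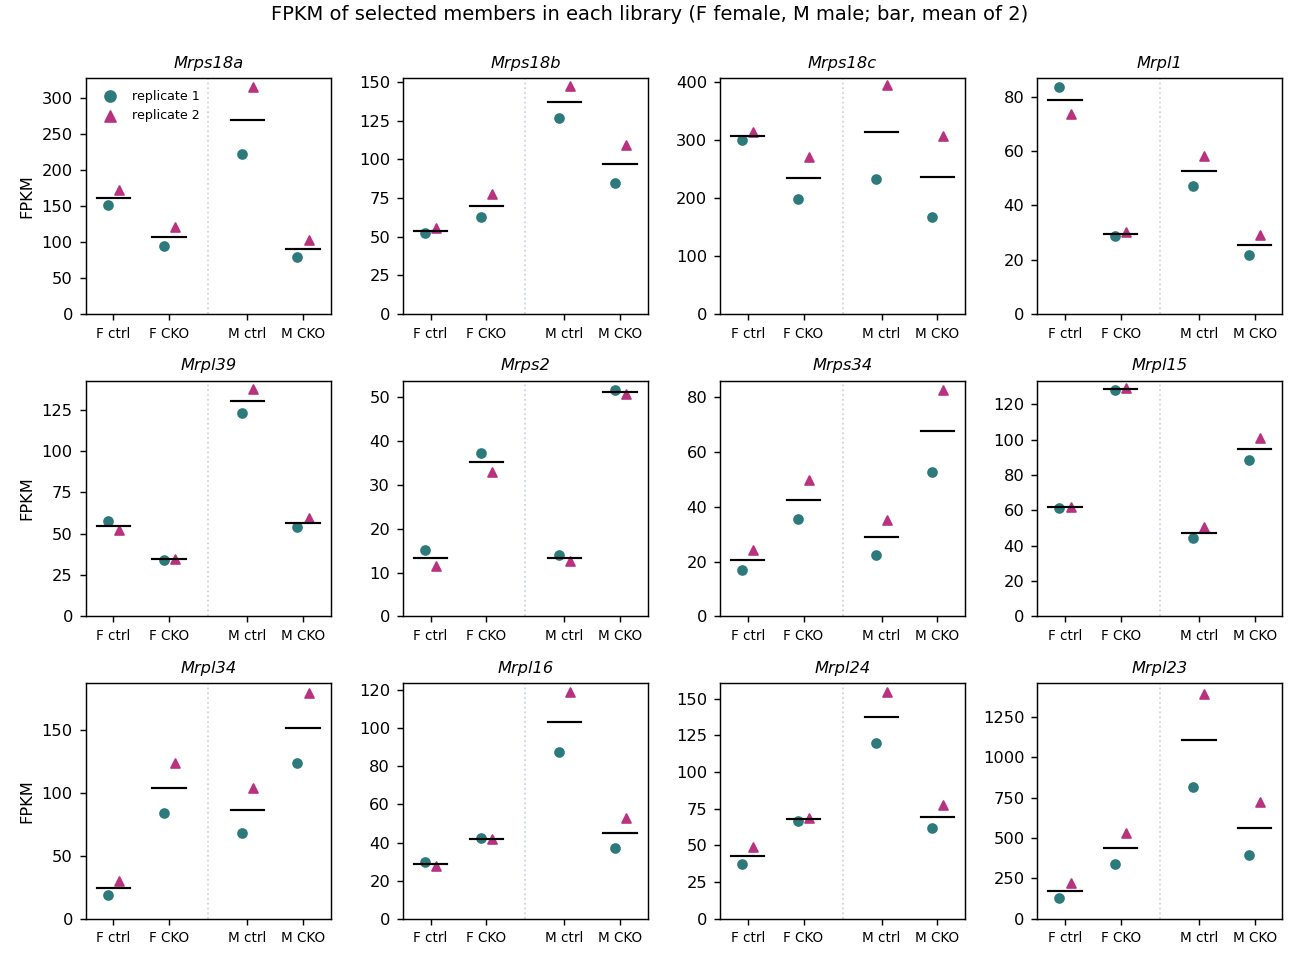
FPKM of 12 members in each library, with female groups left and male groups right of the dotted line, circles for replicate 1, triangles for replicate 2 and bars for the mean of 2; the tables of the sexes were normalized separately. Mrpl1 and Mrps2 separate control from Snf5 CKO in both sexes, and Mrpl16 moves from 29.9 and 27.5 to 42.2 and 42.0 FPKM in females but from 87.6 and 119 to 37.4 and 53 FPKM in males.

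Of the 20 large subunit proteins specific to mitochondria, 5 fell and 1 rose in females (10 and 5 with the block; median log2 fold change −0.19). In males 5 fell and 4 rose (7 and 10 with the block; median 0.15). Mrps18a, a member of the S18 family whose protein sits in the large subunit, was the male member with the largest fall. It was at 223 and 316 FPKM in male control and at 78.7 and 102 FPKM in male Snf5 CKO (−1.55 ± 0.26, adjusted p = 0.00917). In females Mrps18a fell from 151 and 172 FPKM to 94.5 and 121 FPKM (−0.59 ± 0.20, adjusted p = 0.041). The female call was lost under both rescalings (0.0628 and 0.122), with no filter on low values (0.0611), and without control replicate 1 (0.0715), control replicate 2 (0.172) or Snf5 CKO replicate 1 (0.267). Mrpl39, a protein with the fold of a transfer RNA synthetase, fell from 57.8 and 51.9 FPKM to 34.2 and 34.8 FPKM in females (−0.65 ± 0.16, adjusted p = 0.0123). In males Mrpl39 fell from 123 and 137 FPKM to 54.0 and 59.1 FPKM (−1.19 ± 0.17, adjusted p = 0.00624). Neither gene overlapped between groups in either sex, and neither has exons that overlap another gene.

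Several mitochondria-specific members of the large subunit passed the test in 1 sex. Mrpl46 fell in females from 118 and 113 FPKM to 42.4 and 46.8 FPKM (−1.35 ± 0.17, adjusted p = 0.000673). The male groups of Mrpl46 overlapped at 51.8 and 56.4 against 50.2 and 61.5 FPKM. Mrpl48, a protein of the central protuberance, fell in females from 254 and 229 FPKM to 112 and 118 FPKM (−1.06 ± 0.19, adjusted p = 0.00272). In males Mrpl48 was at 133 and 153 FPKM in control and at 96.1 and 110 FPKM in Snf5 CKO (adjusted p = 0.0996; 0.000615 with the block). The exons of Mrpl48 overlap those of Rab6a by up to 409 bases on the other strand. Its row spans 1.47 times the RefSeq gene in both tables, and the annotation holds a pseudogene of it. Mrpl45, which holds the ribosome at the inner membrane, fell in males from 111 and 127 FPKM to 43.1 and 48.0 FPKM (−1.37 ± 0.18, adjusted p = 0.00449). In females Mrpl45 was at 35.3 and 32.8 FPKM in control and at 40.2 and 41.1 FPKM in Snf5 CKO (adjusted p = 0.215).

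Mrps30 rose in females from 19.5 and 14.9 FPKM to 39.3 and 36.1 FPKM (1.1 ± 0.19, adjusted p = 0.00265). In males Mrps30 was at 56.6 and 53.7 FPKM in control and at 64.1 and 69.3 FPKM in Snf5 CKO (adjusted p = 0.229; 0.0164 with the block). The exons of Mrps30 overlap those of B430218F22Rik by up to 601 bases on the other strand. Mrpl51 rose in males from 27.1 and 32.8 FPKM to 60.1 and 82.8 FPKM (1.21 ± 0.23, adjusted p = 0.0119), in a row that spans 12 times the RefSeq gene. In females, where the row of Mrpl51 matches the gene, the groups overlapped at 76.7 and 99.7 against 93.5 and 115 FPKM (adjusted p = 0.341; 0.0294 with the block).

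**Figure D4:**
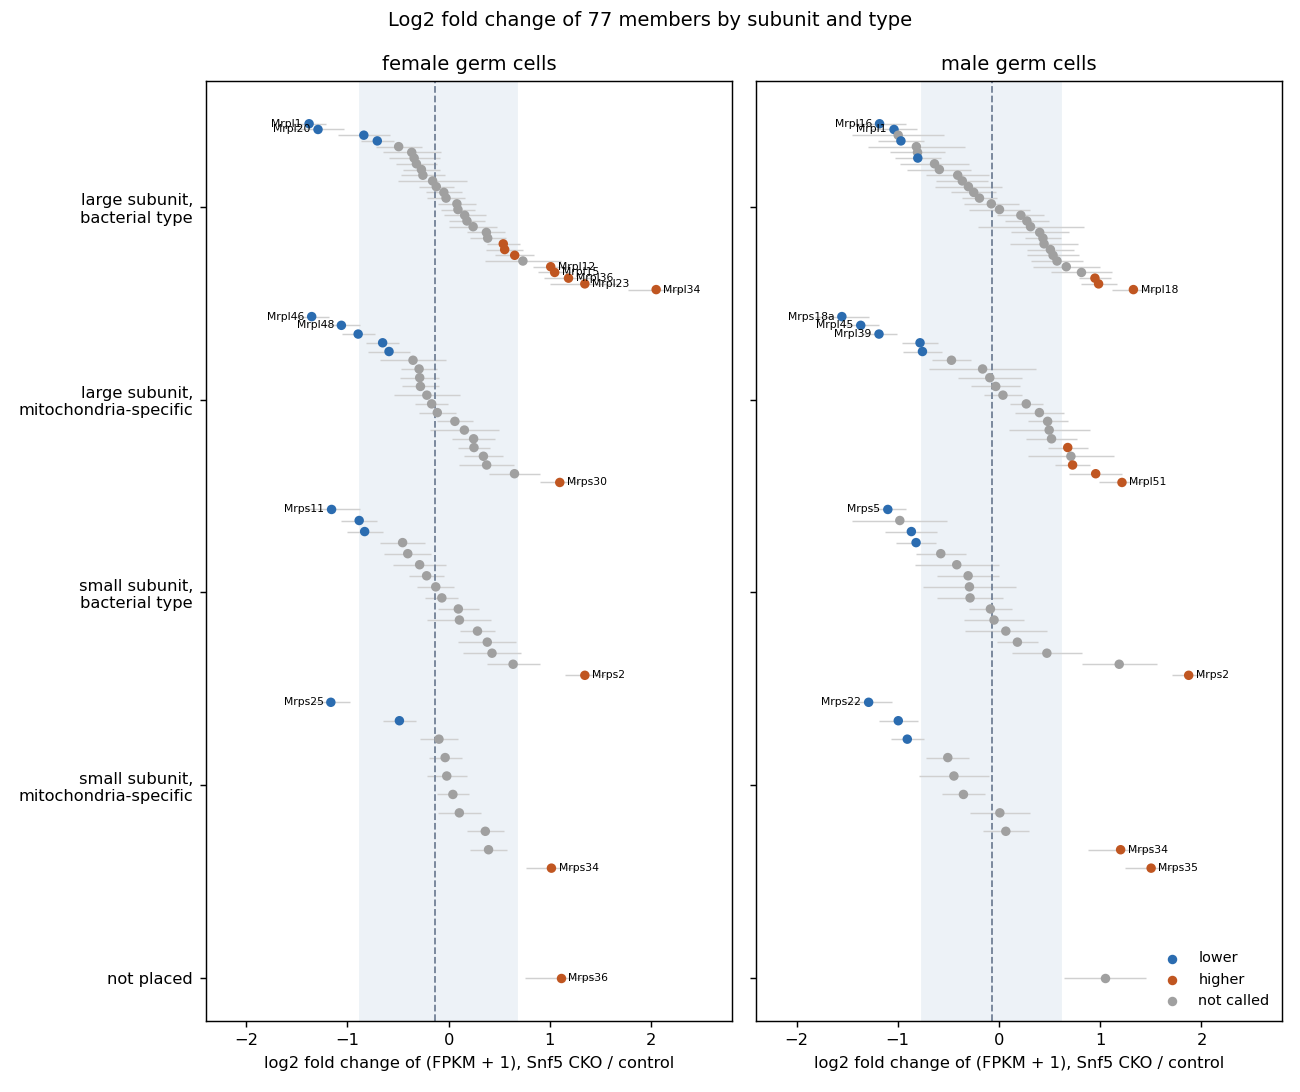
Log2 fold change of (FPKM + 1), Snf5 CKO over control, of each member with its SE (grey bars), by subunit and type, ordered by value within a class; colours mark adjusted p under 0.05, names mark called members of at least 2-fold, and the dashed line and band are the median and quartiles of all genes tested. Called members lie on both sides of 0 in each class, apart from Mrps36, which stands alone, and the values run from −1.38 to 2.05 in females and from −1.55 to 1.87 in males.

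In the small subunit, 3 of 16 proteins of bacterial type fell and 1 rose in both sexes (6 and 5 in females and 9 and 4 in males with the block), with medians of −0.10 in females and −0.29 in males. The 1 that rose was Mrps2 in each sex. Mrps2 was at 15.2 and 11.4 FPKM in female control and at 37.2 and 33.0 FPKM in Snf5 CKO (1.35 ± 0.20, adjusted p = 0.00132). In males it rose from 13.9 and 12.6 FPKM to 51.7 and 50.7 FPKM, 3.67-fold on the scale of FPKM + 1 (1.87 ± 0.16, adjusted p = 0.00237), the largest rise of a male member. Within each table both control libraries lay below both Snf5 CKO libraries.

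Mrps11, a protein of the platform of the small subunit, fell in females from 80.2 and 115 FPKM to 33.9 and 53.5 FPKM (−1.16 ± 0.28, adjusted p = 0.01). The male groups of Mrps11 overlapped at 71.9 and 133 against 33.4 and 72.1 FPKM (adjusted p = 0.144; 0.000181 with the block). Mrps11 and Mrpl46 are neighbours on chromosome 7 on opposite strands, with exons that overlap by 173 bases, and the library kit does not mark the strand. Mrps5, a protein of the entry of the messenger RNA, fell in males from 136 and 148 FPKM to 61.7 and 70.1 FPKM (−1.1 ± 0.18, adjusted p = 0.008). In females Mrps5 was at 75.2 and 75.2 FPKM in control and at 71.5 and 71.9 FPKM in Snf5 CKO (adjusted p = 0.735).

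Among the 10 small subunit proteins specific to mitochondria, 2 fell and 1 rose in females (2 and 3 with the block; median 0.01). In males 3 fell and 2 rose (6 and 2 with the block; median −0.40). Mrps34, which stabilizes the ribosomal RNA of the small subunit, rose in both sexes. It was at 16.9 and 24.3 FPKM in female control and at 35.4 and 49.8 FPKM in Snf5 CKO (1.02 ± 0.25, adjusted p = 0.0108). In males Mrps34 was at 22.5 and 35.2 FPKM in control and at 52.7 and 82.7 FPKM (1.2 ± 0.32, adjusted p = 0.0331). The male call of Mrps34 was lost on linear FPKM (0.0935), with a common sum (0.0534), with no filter on low values (0.0521), and without control replicate 1 (0.108) or Snf5 CKO replicate 2 (0.0624). The female call was lost on linear FPKM (0.0518). The exons of Mrps34 overlap those of Nme3 and Mapk8ip3. Mrps35 rose in males from 20.6 and 27.6 FPKM to 58.4 and 82.4 FPKM (1.5 ± 0.25, adjusted p = 0.00894). In females Mrps35 was at 59.4 and 71.5 FPKM in control and at 81.9 and 90.2 FPKM in Snf5 CKO (adjusted p = 0.0993; 0.00605 with the block).

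Mrps22 fell in males from 117 and 157 FPKM to 48.9 and 61.5 FPKM (−1.29 ± 0.23, adjusted p = 0.0109). The female groups of Mrps22 overlapped (adjusted p = 0.673). Mrps25 fell in females from 20.5 and 23.8 FPKM to 8.54 and 10.2 FPKM (−1.16 ± 0.19, adjusted p = 0.00193). The male groups of Mrps25 overlapped (adjusted p = 0.827). The exons of Mrps25 overlap those of Nr2c2 by up to 3533 bases on the other strand. Its row spans 6.45 times the RefSeq gene in the female table and 6.42 times in the male table. Mrps36 was at 48.7 and 97.3 FPKM in female control and at 121 and 185 FPKM in Snf5 CKO (1.11 ± 0.36, adjusted p = 0.0315). That call was lost on linear FPKM (0.0779), with no filter on low values (0.0847) and without control replicate 1 (0.62, adjusted p = 0.122). In males Mrps36 was at 33.0 and 61.8 FPKM and at 71.7 and 124 FPKM (1.05 ± 0.40, adjusted p = 0.0887; 9.15e-05 with the block), and the annotation holds 3 pseudogenes of it.

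The remaining S18 genes did not pass the test in either sex. Mrps18b, a mitochondria-specific protein of the small subunit (chromosome 17, 35910385 to 35916369), was at 52.4 and 55.4 FPKM in female control and at 62.5 and 77.3 FPKM in female Snf5 CKO (0.36 ± 0.18, adjusted p = 0.123; 0.0136 with the block). In males Mrps18b was at 127 and 148 FPKM in control and at 84.5 and 109 FPKM in Snf5 CKO (−0.51 ± 0.21, adjusted p = 0.111; 0.000895 with the block). Both Snf5 CKO libraries lay above both controls in females and below both in males. Mrps18c, the counterpart of the bacterial protein (chromosome 5, 100798759 to 100804467), was at 299 and 314 FPKM in female control and at 198 and 270 FPKM in Snf5 CKO (−0.40 ± 0.23, adjusted p = 0.17; 0.0129 with the block). The male groups of Mrps18c overlapped at 232 and 395 against 167 and 306 FPKM (−0.42 ± 0.41, adjusted p = 0.445; 0.00107 with the block). Mrps18a lies on chromosome 17 from 46111004 to 46128908 and was the S18 gene that passed the test in both sexes. An exon of Mrps18b overlaps an antisense gene, Gm16279, by 578 bases.

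Set side by side in the fit without the block, 7 members were called lower in both sexes: Mrpl1, Mrpl37, Mrpl39, Mrpl47, Mrps10, Mrps18a and Mrps27. Another 3 were called higher in both, Mrpl15, Mrps2 and Mrps34, and 2 had opposite signs, Mrpl16 and Mrpl24. Of the 11088 names tested in both tables, 10.6% were called lower in both, 11.0% higher in both and 7.02% with opposite signs. In this fit the count of members lower in both (7 of 77) was thus near the background and the other counts were below it. A further 14 members were called in females alone, 13 in males alone and 38 in neither, without a test of the difference between the sexes. All of these counts depend on the fit: with the block more members passed in both sexes, among them Mrpl23 and Mrps18b with opposite signs. The share of all names called in both sexes with the block was not computed. Across the 77 members, the log2 fold changes of the sexes, which share no library, had a correlation of 0.380, beside 0.384 across the names tested in both. Without overlap between groups, 12 members were lower in both sexes, 9 were higher in both and 12 went opposite ways, where 21.2%, 19.4% and 20.7% of the names tested in both did. Each of these 3 counts was thus below the background.

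**Figure D5:**
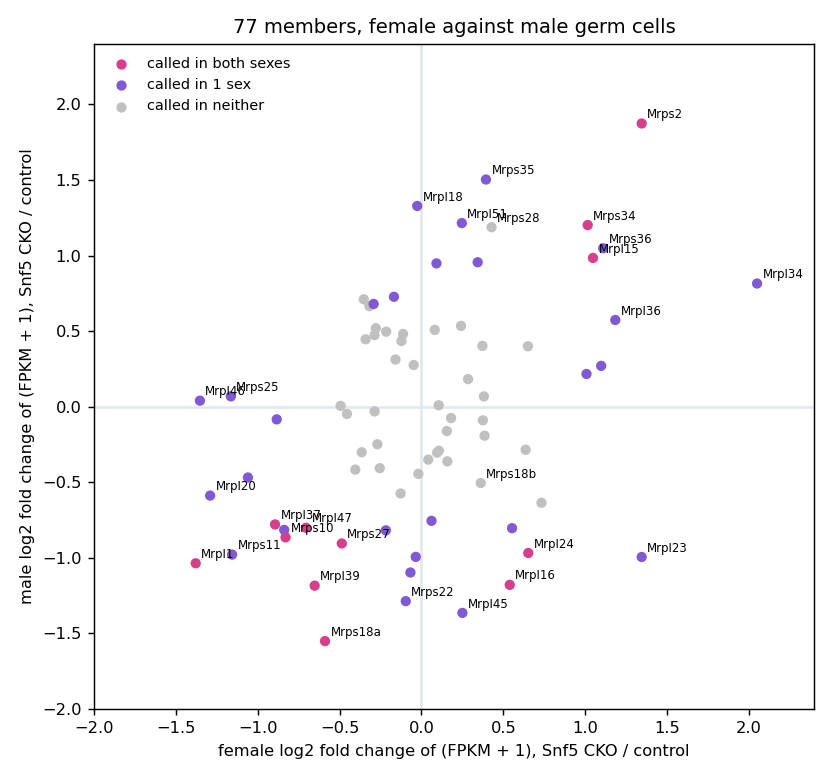
Each point is a member, at its female (x axis) and male (y axis) log2 fold change of (FPKM + 1), Snf5 CKO over control. Colours mark members called in both sexes, in 1 or in neither, in the fit without the block. The points have a correlation of 0.380, with Mrps2 at the top right (1.35 and 1.87) and Mrpl16, Mrpl24 and Mrpl23 at the lower right, higher in females and lower in males.

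The holders of the YY1 type motif printed above lay mostly below 0. Of the 8, Mrpl35, Mrpl37, Mrps11, Mrps18a and Mrps27 fell in females and Mrpl36 rose, and Mrpl37, Mrps18a and Mrps27 fell in males and none rose. With the block 5 fell and 3 rose in females, and 5 fell and 1 rose in males. The backgrounds are those given above for all genes (34.7% lower and 27.0% higher in females, 25.3% and 21.0% in males). Their median log2 fold change was −0.54 in females and −0.80 in males, beside −0.02 and −0.12 for the other members with a promoter window. Mrpl37 was at 103 and 103 FPKM in female control and at 54.0 and 56.3 FPKM in Snf5 CKO, and in males at 107 and 116 FPKM and at 60.2 and 69.1 FPKM. Mrps27, a small subunit protein that binds RNA, was at 33.5 and 31.4 FPKM in female control and at 22.8 and 23.0 FPKM in Snf5 CKO, and in males at 68.3 and 75.7 FPKM and at 37.1 and 38.8 FPKM. Mrpl42 and Mrps24 did not pass the test in either sex (female adjusted p = 0.264 and 0.283), and with the block both were higher in females (0.00274 and 0.00723). Mrpl35 was lower in males with the block alone (adjusted p = 0.217; 0.000345 with the block). The rows of Mrpl35 and Mrpl37 span 10.8 and 2.92 times the RefSeq gene in the female table, and 1.29 and 1 times in the male table. The 25 holders of the ETS type motif had medians of −0.02 in females and −0.16 in males (−0.05 and −0.25 for the others), and the 8 holders of the NRF1 type motif −0.03 and 0.03 (−0.03 and −0.18 for the others). Mrps18a and Mrps27 hold both the YY1 type and the ETS type motif. This comparison was added after the values were seen, and the medians are over few genes and were not tested.

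As a share of all FPKM in named rows, the members held 1.22% and 1.40% in female control and 1.25% and 1.35% in female Snf5 CKO, which overlapped. In males they held 1.27% and 1.49% in control and 1.04% and 1.02% in Snf5 CKO, a difference of −0.344 percentage points. The single most abundant member, Mrpl23, made up 10.1% and 11.8% of the members' FPKM in male control, and without it the male share was still 1.14% and 1.31% in control and 0.984% and 0.951% in Snf5 CKO (−0.258 percentage points). In males both Snf5 CKO libraries thus lay below both controls. Unnamed rows, left out of these sums, held from 5.46% to 42.1% of the FPKM of a library. With them in the denominator the members held 0.773% and 0.902% in female control and 1.12% and 0.966% in female Snf5 CKO, without overlap. The male groups then overlapped, at 1.19% and 0.861% in control and 0.987% and 0.661% in Snf5 CKO.

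Proteins of the mitoribosome with other names were counted apart. Of Dap3, Ptcd3, Chchd1, Aurkaip1 and Gadd45gip1, 1 rose in females and 3 in males, and none fell (with the block, 1 fell and 2 rose in females and 5 rose in males). The shares higher were 20% in females and 60% in males, beside 27.0% and 21.0% of all genes, of which 34.7% and 25.3% were lower. Gadd45gip1, a protein at the tunnel exit, was at 7.18 and 10.1 FPKM in female control and at 40.0 and 55.1 FPKM in Snf5 CKO (2.33, adjusted p = 0.000319). Chchd1 rose in males from 92.2 and 119 FPKM to 178 and 231 FPKM (0.94, adjusted p = 0.0281). Ptcd3 rose in males from 52.3 and 44.6 FPKM to 98.0 and 77.6 FPKM (0.84, adjusted p = 0.024).

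Factors that assemble the mitoribosome or process and modify its RNA held larger single changes than the members. Of 23 such genes, 10 fell and 4 rose in females (14 and 6 with the block; median −0.44), that is 43.5% and 17.4% of the list beside 34.7% and 27.0% of all genes. In males 7 fell and 7 rose (11 and 11 with the block; median 0.15), 30.4% in each direction beside 25.3% and 21.0% of all genes. Trmt61b, a methyltransferase of mitochondrial RNA, fell in females from 66.8 and 76.6 FPKM to 6.89 and 9.32 FPKM (−3.01, adjusted p = 0.000105). Noa1, a GTPase of ribosome assembly, fell in females from 71.8 and 60.8 FPKM to 27.6 and 26.5 FPKM (−1.26, adjusted p = 0.000979). Mrm2 and Ngrn rose most in females (1.18 and 0.85). In males Mrm1, a methyltransferase of the large ribosomal RNA, was at 0.846 and 0.426 FPKM in control and at 13.9 and 14.8 FPKM in Snf5 CKO (3.24, adjusted p = 0.00212). Ngrn rose in males from 9.66 and 9.93 FPKM to 23.7 and 29.4 FPKM (1.34, adjusted p = 0.00566). Nsun4 (−1.5) and Rbfa (−1.30) fell most in males.

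Of the 15 translation factors tested, 4 fell and 3 rose in females and 3 fell and 1 rose in males (7 and 5, and 8 and 2, with the block). These are 26.7% and 20% in females and 20% and 6.67% in males, all below the shares of all genes in the fit without the block. With the block the shares lower, 46.7% in females and 53.3% in males, were above the 42.6% and 41.2% of all genes. The shares higher with the block, 33.3% and 13.3%, were below the 34.1% and 35.1% of all genes. Tsfm, the exchange factor of the mitochondrial elongation factor Tu, rose in both sexes, from 24.9 and 25.6 FPKM to 63.4 and 79.8 FPKM in females (1.46, adjusted p = 0.000693). In males Tsfm rose from 29.3 and 39.9 FPKM to 67.9 and 81.7 FPKM (1.1, adjusted p = 0.0148). The elongation factor itself, Tufm, fell in males (−0.91), as did Gfm2 (−0.94), and Mtfmt (−1.17) and Guf1 (−1.05) fell and Mtrf1 (1.06) rose in females.

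Of 17 mitochondrial transfer RNA synthetases, 4 fell and 2 rose in females and 3 fell and 2 rose in males (6 and 3 in each sex with the block). The shares, 23.5% and 11.8% in females and 17.6% and 11.8% in males, were below those of all genes. Fars2, the phenylalanine enzyme, fell in both, from 64.7 and 57.8 FPKM to 25.5 and 23.6 FPKM in females (−1.29, adjusted p = 0.000813). In males Fars2 fell from 98.0 and 95.4 FPKM to 37.8 and 37.3 FPKM (−1.34, adjusted p = 0.00368). Wars2 (−0.88) fell and Aars2 (1.36) and Mars2 (0.62) rose in females, and Vars2 (−1.32) fell and Yars2 (1.04) and Rars2 (0.84) rose in males.

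Of the genes of mitochondrial transcription and replication, 3 of 9 tested fell and 2 rose in females, and 4 of 10 fell and 1 rose in males (3 and 4, and 4 and 3, with the block). The shares were 33.3% and 22.2% in females and 40.0% and 10.0% in males, beside 34.7% and 27.0%, and 25.3% and 21.0%, of all genes. Polrmt, the mitochondrial RNA polymerase, fell from 47.8 and 42.6 FPKM to 12.5 and 12.9 FPKM in females (−1.75, adjusted p = 0.000261). In males Polrmt fell from 28.2 and 26.1 FPKM to 17 and 16.5 FPKM (−0.66, adjusted p = 0.0258). In females Twnk (−1.05) fell and Ssbp1 (1.01) and Polg2 (0.94) rose, and in males Mterf1a (−1.29) and Polg2 (−0.94) fell and Tfam (0.73) rose. Of 8 tested nuclear regulators of mitochondrial genes, 1 fell and 3 rose in females and none fell and 2 rose in males (in males 2 and 5 with the block). That is 12.5% and 37.5% of the list in females and 0% and 25% in males, beside the same shares of all genes. Mycn, a MYC family transcription factor, rose from 6.65 and 11.3 FPKM to 142 and 138 FPKM in females (3.86, adjusted p = 9.87e-05). In males Mycn rose from 15.1 and 14.0 FPKM to 97.0 and 103 FPKM (2.70, adjusted p = 0.00212). Pprc1 rose (1.42) and Gabpb2 fell (−0.99) in females, and Gabpa, the subunit of GABP that binds DNA, rose in males (0.91).

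Markers of other gonadal cells moved with genotype. The counts that follow stand beside the shares of all genes, 34.7% lower and 27.0% higher in females and 25.3% and 21.0% in males. The summed level of 8 Sertoli cell markers was 75.7 and 64.8 FPKM in male control and 287 and 471 FPKM in male Snf5 CKO, with 7 of 7 tested called higher. That of 5 Leydig cell markers was 85.7 and 58.2 FPKM in male control and 19.2 and 15.1 FPKM in male Snf5 CKO, with 3 of 5 called lower. In females the 6 pre-granulosa cell markers summed to 7.71 and 9.98 FPKM in control and 21.1 and 19.6 FPKM in Snf5 CKO, with 4 of 5 tested called higher. The fifth, Bmp2, was called lower, from 3.80 and 3.47 FPKM to 1.32 and 0.812 FPKM (−1.18). The 8 germ cell markers were detected in every library, and their sums, from 3147 to 3512 FPKM in females and from 4526 to 5564 FPKM in males, covered changes of single markers in opposite directions. In females 4 were called higher, Dppa3 (4.89 on the log2 scale), Pou5f1 (4.59), Dnd1 (4.39) and Kit (2.02), and 2 lower, Tex101 (−3.04) and Mael (−1.94). In males 4 were called lower, Mael (−2.97), Tex101 (−2.12), Dnd1 (−1.78) and Ddx4 (−0.93), and 1 higher, Kit (1.7). Of the single defining genes, Foxl2 was at 0.328 and 1.13 FPKM in female control and at 1.67 and 2.07 FPKM in female Snf5 CKO, and Amh was at 17.3 and 16.5 FPKM in male control and at 69.7 and 120 FPKM in male Snf5 CKO. In females the Sertoli cell markers summed to 3.29 and 4.61 FPKM in control and 9.89 and 7.32 FPKM in Snf5 CKO. The 3 of them tested, Gata4, Nr5a1 and Wt1, were called higher. Sox9, Amh, Dhh, Ptgds and Cyp26b1 stayed below 1 FPKM in every female library. The Leydig cell markers in females summed to 4.74 and 4.89 FPKM and 12 and 11.8 FPKM. Most of that sum was Insl3, from 3.13 and 3.99 to 8.52 and 10.1 FPKM, while Star, Cyp11a1 and Cyp17a1 stayed below 1 FPKM. In males the pre-granulosa cell markers summed to 10.3 and 11.7 FPKM in control and 4.95 and 8.47 FPKM in Snf5 CKO. Blood and endothelial markers summed to between 13.0 and 48.4 FPKM in females and between 39.7 and 59.6 FPKM in males, with overlapping groups, and most of the female sum was Hba-a1 in replicate 2. Of the 2 genes of that list tested in females, only Pecam1 was called, and higher, from 4.10 and 3.65 FPKM to 24.3 and 19.7 FPKM (2.23). Cdh5, Kdr and Tie1 of the same list stayed below 1 FPKM in every female library and were not tested. From control to Snf5 CKO, Cdh5 went from 0.106 and 0.131 to 0.00946 and 0 FPKM. Kdr went from 0.390 and 0.149 to 0.0954 and 0.0595 FPKM, and the groups of Tie1 overlapped. The paper lists a high purity for every RNA-Seq sort, with close values in control and Snf5 CKO. The part of other gonadal cells in the values of the members was not tested.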

How the data were processed

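RNA of sorted germ cells (E15.5, 8 libraries, 4 groups of 2) was made into cDNA with a SMART-Seq kit that does not mark the strand and sequenced in pairs. The authors aligned the reads to mm10 with Tophat and made the deposited FPKM values per gene with Cufflinks, in a female and a male table normalized separately; the version of the gene annotation is not given in the sources used here. No counts were analysed here, so depth is unknown, and 16 columns that give Cufflinks' confidence limits were left aside. The tables hold 29018 and 30216 rows, of which 24281 and 23944 carry a gene name; for each name the row with the highest mean was kept.

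Genes whose 4 libraries of a sex averaged 1 FPKM or more were compared with limma 3.58.1 (R 4.3.3) on log2(FPKM + 1), with eBayes and a trend on the mean, and p-values were adjusted by Benjamini-Hochberg over all genes tested. Fold changes are on that scale, Snf5 CKO over control, which understates low genes. The paper describes the 2 libraries of a group as biological duplicates but does not say whether they came from separate litters. The p-values thus measure the spread between these libraries, which may be partly technical. Labels of the replicate 1 libraries share a flow cell and lane, and the male columns carry an experiment number. The female columns carry a replicate number only. The number was taken as a shared batch, which these labels do not state for every library. The paper names 2 sequencers without saying which library was run on which. Across genes, the replicate difference of the controls correlated with that of the Snf5 CKO libraries at 0.500 in females and 0.607 in males. Values of the fit with the number as a block are given where they change the call of a named member, and as counts for most other lists. With 4 libraries, that fit leaves 1 residual degree of freedom per gene.

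The members, the other gene lists and the rule for named genes were chosen with earlier results of these data known. Named are the S18 paralogs, the 6 largest called changes a direction and sex without overlap, every called change of at least 2-fold, the 3 highest and 2 lowest members in control, members called with opposite signs, and up to 2 genes a sex and direction of the other lists. The holders of the YY1 type motif, Mrpl47 and Mrps10, called in both sexes, and the other-sex values of named members were added after their values were seen, as were the marker genes named and the motif comparison. Exon overlaps were taken from the GENCODE annotation and gene spans and promoters from RefSeq. The alternatives tried were other pseudocounts, filters, scalings, scales, variance models, row choices and the omission of each library. Those without members that overlap other genes and without the most abundant member were added after seeing the data. Scripts (Python 3.11.15, pandas 2.3.3, matplotlib 3.10.9) were tested on simulated data.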

Additional observations from a re-analysis of the deposited data

Results flagged for a closer look

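For 6 members both Snf5 CKO libraries lay on one side of the controls in females and on the other side in males; the difference between the sexes was not tested. Higher in females and lower in males were Mrpl16 (log2 fold changes of 0.54 and −1.18), Mrpl23 (1.34 and −0.995), Mrpl24 (0.65 and −0.97), Mrpl45 (0.25 and −1.37) and Mrps18b (0.36 and −0.51). Mrpl19 was lower in females and higher in males (−0.12 and 0.43). Of these 12 values, 6 passed the test in their own sex: both of Mrpl16, both of Mrpl24, the female value of Mrpl23 and the male value of Mrpl45. With the replicate block 10 of the 12 passed. The female call of Mrpl16 was lost without any 1 library (adjusted p from 0.0637 to 0.122), that of Mrpl24 without 3 of the 4 in turn, and the male calls of both without 2 of the 4 in turn (limma). Only members named by rule were examined, among the 12 of 77 that went opposite ways without overlap.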

How the results depend on the processing

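Counts of called members depended most on how the spread was estimated. Without moderation, 7 female members were lower and 2 higher, with 5 changed at least 2-fold, and 0 male members were lower and 2 higher, with 1 changed at least 2-fold (limma's fit without eBayes; 19 female and 16 male members had an unadjusted p under 0.05). With the replicate block, 27 female members were lower and 26 higher, and 35 male members were lower and 31 higher. Rescaling male libraries to a common sum gave 5 higher and 20 changed at least 2-fold, and linear FPKM gave 6 male members higher. Without members that overlap other genes, counts over the remaining 44 were 7 lower, 7 higher and 7 at least 2-fold in females and 4 higher in males.

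Leaving out 1 library gave 9 to 14 lower (9 without female Snf5 CKO replicate 1) and 7 to 13 higher (7 without female control replicate 1) in females. In males it gave 5 to 16 lower (5 without Snf5 CKO replicate 1 and 5 without control replicate 2) and 4 to 11 higher (4 without control replicate 1, 5 without Snf5 CKO replicate 2). The lone library is then assumed to vary like the other group. The median log2 fold change ran from −0.12 to 0.09 in females and from −0.33 to 0.18 in males. With all rows in the denominator, the share of FPKM differed by 0.207 percentage points in females and −0.199 in males.

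Signs that turned belonged to members not called: Mrpl19 in females with median-of-ratios factors (0.021), and Mrps25 in males with a common sum (−0.11). Over the omissions of 1 library, Mrpl33 ran from −0.50 to 0.19 in females, and in males Mrpl42 from −0.33 to 0.15, Mrpl52 from −0.73 to 0.41, Mrps18c from −0.85 to 0.016 and Mrps25 from −0.12 to 0.25. Of the 32 called values of named members, 6 kept the call under every alternative tried, 15 lost it under 1 and 11 under 2 or more. Over all values of named members and Smarcb1, 654 kept sign and side of the threshold, 61 lost the call and 10 gained it. The causes were not tested. Without counts, the precision that depth gives cannot be stated.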
